A study of Mus musculus with 6 samples.

Results

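The genes described here encode the laminin chains, the nidogens and the integrin subunits through which cells other than leukocytes hold on to the extracellular matrix. They were chosen by symbol: 29 named genes, each matching 1 of the 21899 rows of the deposited table, made up of 12 laminin and nidogen genes and 17 integrin genes. Levels were compared in colon tissue between Adamts4 knockout mice (KO, 3 libraries) and wild-type mice (WT, 3 libraries). Both groups had received 2.5% dextran sodium sulfate (DSS), a polysaccharide that injures the colonic epithelium, for 7 days, so every value sets one genotype against the other during colitis. The protease ADAMTS4 acts outside the cell, where it cuts proteoglycans of the matrix. The labels give no knockout allele, strain, age, sex or litter, and they do not tie each library to a separate animal, so the replicate spread behind every p-value may be partly technical. A difference in background between the genotypes cannot be told apart from the loss of Adamts4.

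Laminins are trimers of an alpha, a beta and a gamma chain, secreted by epithelial, endothelial, muscle and stromal cells. Many of them polymerise into the sheet on which a basement membrane is built. Nidogens link that sheet to the type IV collagen network. Integrins are pairs of an alpha and a beta subunit that bind laminin, collagen or proteins with an RGD (arginine, glycine, aspartate) motif outside the cell and connect to actin or keratin filaments inside it. In the colon the laminin beneath the crypt epithelium and the integrins that grip it hold the epithelial sheet to the lamina propria, and vessels, smooth muscle and nerves each have a basement membrane of their own.

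The libraries held 15786214 to 22932125 counts. Adamts4 was at 0 counts in KO 1, KO 2 and KO 3 and had 900, 992 and 997 counts in the WT libraries. The epithelial marker list (Epcam, Cdh1, keratins and others, 10 genes) summed to between 10358 and 14140 CPM (counts scaled to library size) in the 6 libraries, and the list of anal squamous markers to between 0.976 and 4.53 CPM. KO 3 stood apart, with a score of 73.1 on the first principal component, and the score of KO 1 (-16.6) fell inside the WT range (-6.88 to -47.0). Fold changes of the set without each of these 2 libraries are therefore plotted beside those from all libraries. Levels are CPM scaled by TMM factors, and log2 fold changes are KO minus WT with a standard error (SE) from edgeR's quasi-likelihood test. The edgeR adjusted p-values are Benjamini-Hochberg values over the 14553 genes tested. Those of DESeq2 are its own, after its default filtering of genes.

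No gene of the set passed the threshold of an adjusted p below 0.05 in edgeR, where 0.151% of all genes tested were called lower and 0.00687% higher. Of the 29 genes 5 had an unadjusted p below 0.05, all with a lower mean in KO, namely Itgb3, Itgb5, Itga7, Lama1 and Itga5, beside 7.85% of all genes tested. None had an unadjusted p below 0.05 with a higher mean in KO (5.17% of all genes). DESeq2 called 1 of the 29, Itgb3, lower (2.96% of all genes), and limma-voom called none. Log2 fold changes were below 0 for 28 of the 29 genes, beside 45.8% of all genes, with a median of -0.45 for the set and 0.03 for all genes. In 4 genes, Lama1, Itga7, Itgb3 and Itgb5, every KO library lay below every WT library, beside 10.2% of all genes. In tissue libraries such as these, fewer cells of a type and less RNA per cell cannot be told apart.

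**Figure D1:**
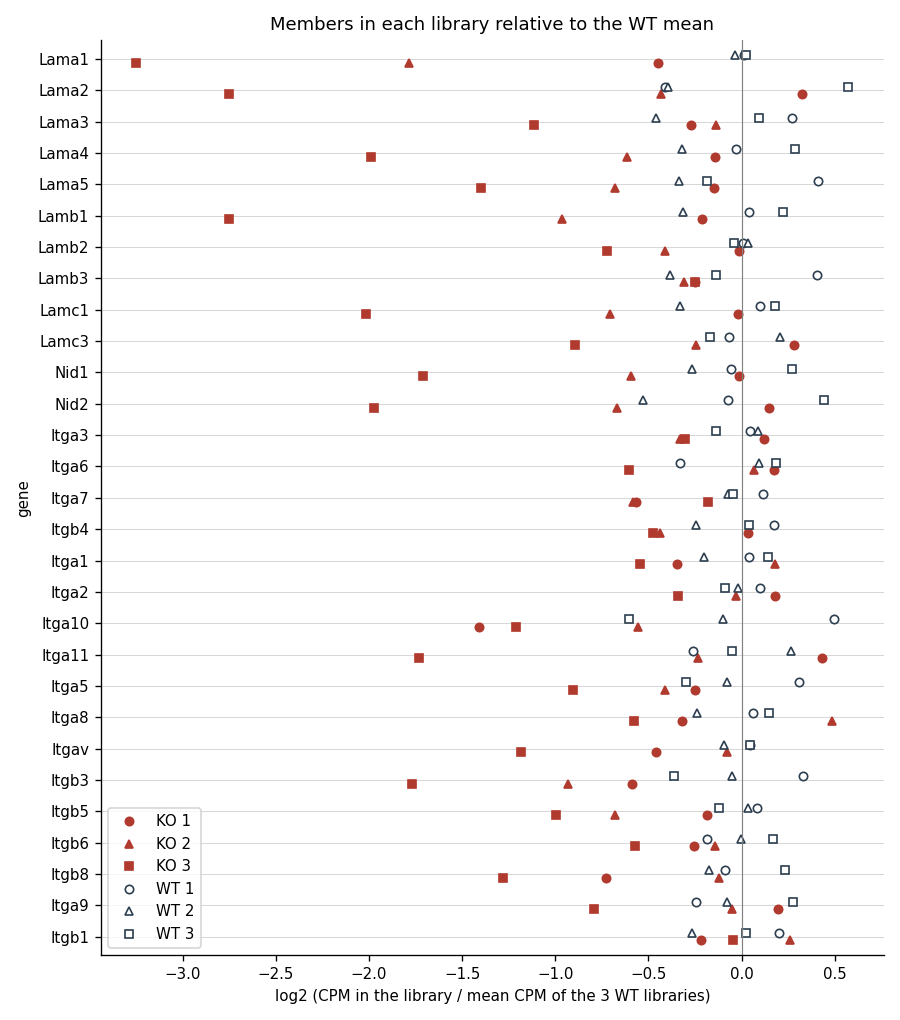
Level of each of the 29 genes in each library (red filled symbols KO, open symbols WT), on the x axis as log2 of the CPM divided by the mean CPM of the 3 WT libraries. The red square of KO 3 is the lowest KO symbol for 24 of the 29 genes, and KO 1 lies within the WT range for 15.

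Among the laminin alpha chains Lama1 had the largest difference. Lama1 encodes the alpha chain of the laminin of early embryos, which in adults persists in few basement membranes. In library order it stood at 20.2, 7.99 and 2.90 CPM for the KO group, against 27.8, 26.9 and 28.0 CPM for WT. The WT libraries were nearly alike, and the KO libraries spread over a wide range, all below them. The log2 fold change was -1.41 ± 0.56 (SE; edgeR unadjusted p = 0.0353, adjusted p = 0.350). It became -0.96 without KO 3 and -2.34 without KO 1.

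Lama4 and Lama3 were the most abundant alpha chains per transcript length. Lama4, the alpha chain of endothelial and mesenchymal laminin, stood at 77.4, 55.7 and 21.5 CPM in the KO libraries and 83.7, 68.3 and 104 CPM in the WT libraries (-0.73 ± 0.40, edgeR adjusted p = 0.482). Lama3, the epithelial chain that anchors hemidesmosomes, stood at 68.8, 75.5 and 38.4 CPM in KO and 100.2, 60.3 and 88.7 CPM in WT (-0.45 ± 0.28, edgeR adjusted p = 0.536). For both genes KO 1 lay within the WT range and KO 3 below it, so the groups overlapped.

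Lama5, the alpha chain of mature epithelial and vascular basement membranes, had 63.6, 44.1 and 26.7 CPM in KO and 93.7, 55.8 and 62.1 CPM in WT (-0.65 ± 0.32, edgeR adjusted p = 0.430). Lama2, the alpha chain of muscle and nerve sheath laminin, had 48.4, 28.6 and 5.74 CPM in KO and 29.1, 29.4 and 57.5 CPM in WT (-0.48 ± 0.63, edgeR adjusted p = 0.783). The Lama2 difference rested on KO 3 and WT 3: the fold change was -0.0016 without KO 3 and -0.08 without WT 3, and KO 1 was above WT 1 and WT 2.

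The deposited TPM values, which take gene length into account, allow the 5 alpha chains to be set side by side within a library, with a limit for Lama2. Its length implied by counts over TPM, relative to the WT mean, was 1.10, 1.02 and 0.592 in KO and 0.775, 1.19 and 1.08 in WT. The Lama2 share, and through the sum every other share, carries that uncertainty. Lama1 made up 5.55%, 2.76% and 2.19% of the summed alpha chain TPM of the KO libraries, against 6.23%, 8.82% and 6.19% for WT. The KO shares were all lower than the WT shares, with a mean difference of -3.58 percentage points (exact two-sided permutation p = 0.1, the smallest that 3 against 3 allows; adjusted p = 0.5 over the 5 shares). Lama3 went the other way, with 30.3%, 41.5% and 45.6% in KO and 35.5%, 29.9% and 30.4% in WT, but these shares overlapped (exact permutation p = 0.3). The mean difference in Lama3 share, 7.20 percentage points, was 3.98 without KO 3 and 11.6 without KO 1, and that in Lama4 share, -3.94, ran from -6.02 (without WT 1) to -1.86 (without KO 3). For Lama1 it ran from -4.61 (without KO 1) to -2.71 (without WT 2). Lama4 took 29.8% ± 3.96 in KO and 33.8% ± 3.65 in WT (SD, n = 3), Lama2 12.8% ± 3.17 and 12.4% ± 2.69, and Lama5 14.8% ± 2.11 and 14.8% ± 3.08. The sum of the 5 genes was 67.9, 58.2 and 22.6 TPM in the KO libraries and 85.6, 60.1 and 85.9 TPM in WT, so the shares of KO 3 come from the smallest total.

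**Figure D2:**
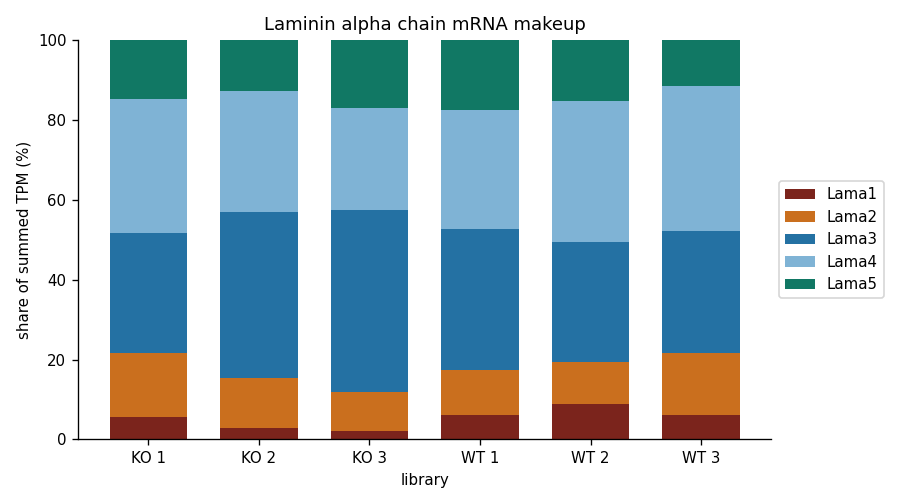
Makeup of laminin alpha chain mRNA in each library, as the share of each gene (y axis, percent) in the summed TPM of Lama1 to Lama5. The Lama1 segment at the bottom is 2.19% to 5.55% in the KO libraries and 6.19% to 8.82% in WT.

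The beta and gamma chains that pair with several alpha chains ran lowest in KO 3. Lamb1, the beta chain of most mesenchymal and endothelial laminins, had 163, 96.8 and 28.0 CPM in KO and 194, 152 and 220 CPM in WT (-0.98 ± 0.51, edgeR adjusted p = 0.461). Lamc1, the gamma chain found in most laminins, had 214, 133 and 53.6 CPM in KO and 232, 172 and 246 CPM in WT (-0.70 ± 0.42, edgeR adjusted p = 0.526). In both genes KO 1 was within the WT range, KO 2 below it and KO 3 lowest. Without KO 3 the fold changes were -0.54 and -0.32, and without KO 1 they were -1.59 and -1.22, with unadjusted p of 0.0128 and 0.0146.

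Lamb3, the beta chain of the epithelial laminin that contains Lama3, showed no such order. It had 161, 155 and 161 CPM in the KO libraries and 254, 147 and 174 CPM in WT. The KO libraries were close together and lay within the WT range (-0.27 ± 0.21, edgeR adjusted p = 0.630), and without WT 1 the fold change was -0.02. Lamc3, a gamma chain of low abundance, had 3.75, 2.60 and 1.66 CPM in KO and 2.95, 3.57 and 2.75 CPM in WT (-0.21 ± 0.35, edgeR adjusted p = 0.840).

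For Lamb2, the beta chain of vascular and muscle basement membranes, the counts and the deposited TPM gave different sizes. By counts it had 51.7, 39.2 and 31.6 CPM in KO and 52.5, 53.5 and 50.7 CPM in WT (-0.35 ± 0.19, edgeR adjusted p = 0.469). By TPM it had 17.2, 18.3 and 10.1 in KO and 23.8, 36.5 and 42.5 in WT, with no overlap between the groups, and the authors' deposited table lists a log2 ratio of -1.17. KO 1 thus stood at the WT level by counts and below every WT library by TPM. The transcript length implied by the ratio of counts to TPM, relative to the WT mean, was 1.85, 1.42 and 1.77 in the KO libraries and 1.40, 0.954 and 0.749 in WT. Its highest value was 2.48 times its lowest, a spread wider than that of 99.8% of 10054 genes with at least 100 counts in each library, whose median was 1.04. Lama2 (2.01) and Lamc1 (1.94) also had wide spreads, both lowest in KO 3, and no other gene of the set exceeded 1.23. What sets the implied length was not tested, and fold changes come from counts unless TPM is named.

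**Figure D3:**
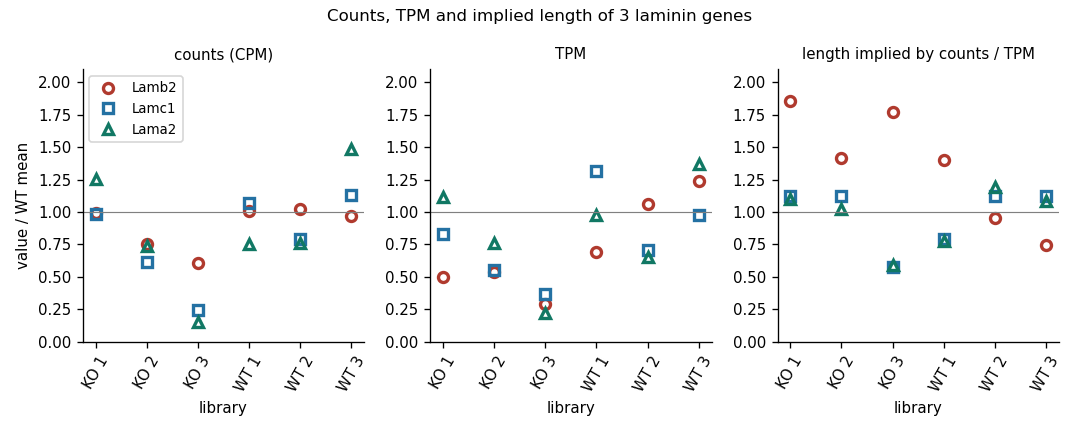
Lamb2, Lamc1 and Lama2 in each library, from left to right as CPM, as deposited TPM and as the length implied by counts over TPM, each divided by its WT mean. The implied length of Lamb2 is 1.85, 1.42 and 1.77 in the KO libraries and 1.40, 0.954 and 0.749 in WT.

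Both nidogens followed the order of Lamb1 and Lamc1. Nid1 had 140, 93.6 and 43.1 CPM in KO and 136, 117 and 171 CPM in WT (-0.61 ± 0.37, edgeR adjusted p = 0.523), and Nid2 23.3, 13.3 and 5.37 CPM in KO and 20.1, 14.6 and 28.6 CPM in WT (-0.59 ± 0.48, edgeR adjusted p = 0.644). KO 1 lay within the WT range and KO 3 under it for each. Exons of Nid2 overlap those of Rtraf, a more abundant gene. Rtraf had 119, 117 and 157 CPM in KO and 131, 110 and 103 CPM in WT. Without stated strand use the level of Nid2 is uncertain to that extent. Over the 12 laminin and nidogen genes KO 3 was the lowest KO library for 11, KO 1 was the highest for 11, and the summed level relative to the WT mean was 0.924 in KO 1, 0.665 in KO 2 and 0.375 in KO 3, beside 0.804 to 1.10 in the WT libraries. Among all genes tested KO 3 was the lowest KO library for 36.2% and KO 1 the highest for 36.2%.

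The laminin-binding integrins of the epithelium had small fold changes. Itga6 and Itgb4 pair in the hemidesmosome, which ties keratin filaments to laminin. Itgb4 had 238, 172 and 167 CPM in KO and 262, 196 and 238 CPM in WT (-0.27 ± 0.19, edgeR adjusted p = 0.593), and Itga6 162, 151 and 94.6 CPM in KO and 115, 154 and 164 CPM in WT (-0.08 ± 0.23, edgeR adjusted p = 0.907). Itga3, the partner of Itgb1 in epithelial adhesion to laminin, had 213, 156 and 159 CPM in KO and 202, 208 and 178 CPM in WT (-0.16 ± 0.17, edgeR adjusted p = 0.737). In all 3 genes KO 1 lay within or above the WT range. Without KO 3, Itga6 stood at 0.12 on the log2 scale.

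Itga7, the laminin-binding alpha subunit of muscle, had a lower level in every KO library. It stood at 30.1, 29.7 and 39.3 CPM in KO and 48.3, 42.3 and 43.2 CPM in WT, and unlike most of the set its highest KO value was in KO 3. The log2 fold change was -0.43 ± 0.16 (edgeR unadjusted p = 0.0302, adjusted p = 0.336). It was -0.57 without KO 3, and without any other single library it was between -0.47 and -0.36 with an unadjusted p above 0.05. Smooth muscle markers lay on the other side of 0: all 8 (Acta2, Myh11, Actg2 and others) had fold changes above 0 with a median of 0.64. An unadjusted p below 0.05 in edgeR was found for 6, higher in KO, beside 5.17% of all genes. The 8 markers summed to 3836, 4585 and 4629 CPM in KO and 3509, 2677 and 2196 CPM in WT. Exons of Itga7 overlap those of Mettl7b, a more abundant gene with 158, 168 and 396 CPM in KO and 192, 213 and 132 CPM in WT. Whether the counting used strand is not stated, so the level of Itga7 is uncertain to that extent.

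None of the collagen-binding subunits had an unadjusted p below 0.05. Itga2 and Itga1, which pair with Itgb1 on epithelial and on stromal cells, averaged 90.9 ± 16.2 and 54.4 ± 14.8 CPM in KO and 94.0 ± 6.23 and 62.7 ± 7.41 CPM in WT (SD, n = 3; log2 fold changes of -0.05 ± 0.16 and -0.21 ± 0.21 with edgeR adjusted p of 0.922 and 0.716). Itga11, a fibroblast receptor for fibrillar collagen, had 8.17, 5.14 and 1.82 CPM in KO and 5.05, 7.28 and 5.84 CPM in WT, with KO 1 above and KO 3 below all WT libraries. Itga10, known from cartilage, was near the lower limit of detection with 10, 15 and 11 counts in KO and 45, 25 and 16 counts in WT (-1.02 ± 0.45, edgeR adjusted p = 0.386).

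The RGD-binding integrins and their relatives held 3 of the 5 genes with an unadjusted p below 0.05, Itgb3, Itgb5 and Itga5. Itga5 pairs with Itgb1 as the main fibronectin receptor, and Itgb5 pairs with Itgav as a receptor for vitronectin. The 250 bases upstream of the RefSeq start sites of these 4 subunits are shown, since they make up a fibronectin and a vitronectin receptor to which Itga5 and Itgb5 belong (fold changes of -0.50 for Itga5, 0.01 for Itgb1, -0.50 for Itgav and -0.58 for Itgb5, with no test between them). The windows, on GRCm38.p6 and overlapping no exon of GENCODE M21, are chr15:103366792-103367041 (minus strand), chr8:128685404-128685653 (plus strand), chr2:83724147-83724396 (plus strand) and chr16:33829415-33829664 (plus strand). Capitals mark the GC box GGGCGG on either strand.
Itga5: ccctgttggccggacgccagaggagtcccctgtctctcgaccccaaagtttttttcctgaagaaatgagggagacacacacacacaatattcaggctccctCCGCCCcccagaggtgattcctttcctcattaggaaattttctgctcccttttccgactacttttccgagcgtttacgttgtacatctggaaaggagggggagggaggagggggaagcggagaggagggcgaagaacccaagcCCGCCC
Itgb1: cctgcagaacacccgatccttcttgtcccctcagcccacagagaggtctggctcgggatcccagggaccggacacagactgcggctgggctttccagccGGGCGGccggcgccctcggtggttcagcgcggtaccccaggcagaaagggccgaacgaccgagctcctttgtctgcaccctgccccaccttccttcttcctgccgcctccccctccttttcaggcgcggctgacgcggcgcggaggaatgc
Itgav: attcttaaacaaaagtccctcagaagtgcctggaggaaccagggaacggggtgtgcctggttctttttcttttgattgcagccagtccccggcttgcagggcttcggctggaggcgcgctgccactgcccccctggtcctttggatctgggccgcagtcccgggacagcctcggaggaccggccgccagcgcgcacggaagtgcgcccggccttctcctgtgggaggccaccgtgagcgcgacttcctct
Itgb5: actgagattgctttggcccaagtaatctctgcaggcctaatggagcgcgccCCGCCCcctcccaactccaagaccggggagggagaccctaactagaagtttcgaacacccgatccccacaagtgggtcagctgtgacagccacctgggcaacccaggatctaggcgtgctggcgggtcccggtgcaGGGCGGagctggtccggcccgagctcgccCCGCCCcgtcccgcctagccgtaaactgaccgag
Itga5 held 2 GC boxes, Itgb5 3, Itgb1 1 and Itgav 0. Of all 32851 RefSeq windows of the same length 32.7% held that motif, as did 8 of the 22 windows of the 19 genes of the set listed there. An AP-1 type motif (TGANTCA), also searched on both strands, was in none of the 22 and in 6.75% of all windows. The same held for the TATA box letters TATAAA, found in 12.4% of all windows. A match is a match of letters and no measure of binding.

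Itgb3, which pairs with Itgav on vessels and osteoclasts and with Itga2b on platelets, had the smallest p of the set. Itgb3 (ENSMUSG00000020689, chromosome 11, 104608000 to 104670476 on GRCm38) had 26.0, 20.5 and 11.5 CPM in KO and 49.3, 37.7 and 30.4 CPM in WT. Every KO library lay below every WT library. The log2 fold change was -1.02 ± 0.31 (edgeR unadjusted p = 0.0109, adjusted p = 0.240), and DESeq2 gave an adjusted p of 0.0406. The authors' deposited table lists a false discovery rate of 0.0465 for this gene. Its unadjusted p was below 0.05 in all 15 alternative fits, the 6 that left out a library included, with fold changes from -0.75 (without KO 3) to -1.29 (without KO 1). Itga2b, its platelet partner, had 0.992 ± 0.371 CPM in KO and 1.89 ± 0.356 in WT (SD, n = 3; -0.94 ± 0.41, edgeR adjusted p = 0.382).

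Itgb5 (ENSMUSG00000022817, chromosome 16, 33829665 to 33949338 on GRCm38) had 87.0, 62.0 and 49.6 CPM in KO and 105, 101 and 91.1 CPM in WT. The groups did not overlap, though KO 1 came close to WT 3. The log2 fold change was -0.58 ± 0.20 (edgeR unadjusted p = 0.0215, adjusted p = 0.300). Itga5 (ENSMUSG00000000555, chromosome 15, 103344286 to 103366763) had 81.6, 72.9 and 51.9 CPM in KO and 120, 92.0 and 78.8 CPM in WT (-0.50 ± 0.22, edgeR unadjusted p = 0.0499, adjusted p = 0.383). KO 1 was above WT 3, so the groups of Itga5 overlapped. Itgav, the alpha subunit shared by several of these receptors, had 63.5, 82.7 and 38.4 CPM in KO and 90.0, 81.7 and 89.9 CPM in WT (-0.50 ± 0.25, edgeR adjusted p = 0.438).

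The remaining subunits of this class differed less or were scarce. Itgb6, the epithelial partner of Itgav that activates latent TGF-beta, averaged 24.1 ± 3.58 CPM in KO and 29.9 ± 3.69 in WT (-0.31 ± 0.18, edgeR adjusted p = 0.505). Itgb8, another TGF-beta activator, had 23, 29 and 15 counts in KO and 43, 34 and 41 counts in WT (-0.64 ± 0.39, edgeR adjusted p = 0.528). Itga8, a smooth muscle and mesenchymal subunit, averaged 3.68 ± 1.50 and 3.85 ± 0.525 CPM (-0.07 ± 0.34). Among the 4 beta partners of Itgav, Itgb5 made up 67.1% to 73.8% of the summed TPM in every library. The Itgb3 share was 11.4%, 11.4% and 7.92% in KO and 16.6%, 13.7% and 11.9% in WT. Each KO share of Itgb3 thus lay below each WT share, if only just for the closest pair. The shares of Itgb5, Itgb6 and Itgb8 overlapped between the groups. Shares of 1 sum depend on each other, and no test is given for them.

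Itgb1, the beta subunit that pairs with most of the alpha subunits here, had the only fold change above 0. It had 333, 462 and 374 CPM in KO and 445, 321 and 393 CPM in WT (0.01 ± 0.21, edgeR adjusted p = 0.987). The sign turned with upper-quartile factors (-0.02), so it has no direction. Itga9, a receptor for tenascin C and osteopontin, had 34.8, 29.3 and 17.5 CPM in KO and 25.7, 28.7 and 36.7 CPM in WT (-0.16 ± 0.27, edgeR adjusted p = 0.839), with KO 3 lowest and the other KO libraries within the WT range.

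By TPM in the WT libraries Itgb1 was the most abundant gene of the set at 187 ± 27.3 TPM (SD, n = 3), above all others in every WT library. Lamb3 (86.7 ± 24.7), Itgb4 (75.0 ± 9.82), Itga3 (74.6 ± 6.87) and Itga6 (63.5 ± 11.3), all genes of epithelial adhesion, came next, and each overlapped its neighbour in this order. Itgb5, Lamb1 and Lamc1 followed at 61.2 ± 6.21, 60.1 ± 9.94 and 59.8 ± 18.2 TPM and could not be ranked by their spread. Lamc3, Itga10 and Itgb8 were lowest, each at or under 1.14 TPM in every library. In KO the same 4 epithelial genes again came next after Itgb1 (182 ± 42.8 TPM), led by Lamb3 at 69.5 ± 4.27.

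The size of the differences depended on the KO libraries included. Without KO 3, 22 of the 29 fold changes were below 0 (46.9% of all genes), the median was -0.20, and 3 genes had an unadjusted p below 0.05 with a lower mean in KO (Lama1, Itga7 and Itgb3; 7.21% of all genes). Without KO 1 the median was -0.56 and 12 genes had one (10.1% of all genes), among them 8 of the 12 laminins and nidogens. Without WT 1 or WT 2, 1 gene was left, Itgb3 (6.12% and 6.25% of all genes). Of the 5 genes, Itgb3 kept such a p with each library left out in turn, Lama1 only without KO 1 or KO 3, Itgb5 and Itga5 only without KO 1 or WT 3, and Itga7 only without KO 3. Among the 29 genes KO 1 lay within the WT range for 15, beside 39.9% of all genes.

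**Figure D4:**
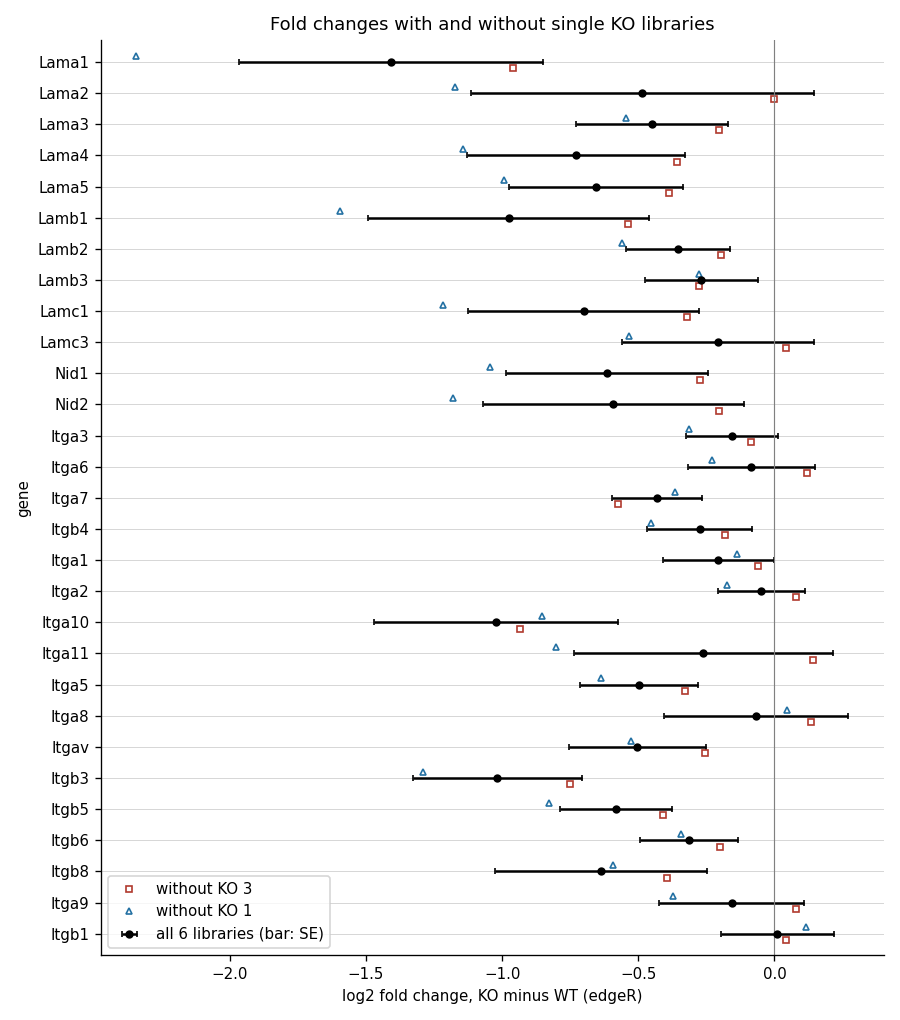
Log2 fold change, KO minus WT, of each of the 29 genes in edgeR from all 6 libraries (black, bars SE), without KO 3 (red squares) and without KO 1 (blue triangles). Lamb1 shifts from -0.54 without KO 3 to -1.59 without KO 1 and Itga11 from 0.14 to -0.80, while Lamb3 and Itgb1 shift little.

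Marker lists of the cell types of the tissue differed in how they ran across the libraries. The fibroblast list (8 genes) summed to 4634, 2648 and 754 CPM in KO and to 3715, 2544 and 5010 CPM in WT, and the endothelial list (9 genes) to 269, 208 and 86.8 CPM in KO and 301, 324 and 373 CPM in WT. The fibroblast sum was thus below the WT range in KO 3 alone, and the endothelial sum was below WT in all KO libraries and lowest in KO 3. All 8 fibroblast and all 9 endothelial markers had fold changes below 0, beside 45.8% of all genes. Their medians were -0.54 and -0.75, and -0.11 and -0.43 without KO 3. In each list 2 markers had an unadjusted p below 0.05 in edgeR, lower in KO, beside 7.85% of all genes. Pericyte markers (6 of 6 below 0, median -0.76) summed to 190 to 289 CPM in KO and 380 to 514 in WT. Of these edgeR called 1 lower, the potassium channel gene Kcnj8, beside 0.151% of all genes. The epithelial list had a median log2 fold change of 0.10, with 9 of 10 markers above 0 and sums of 11434 to 14140 CPM in KO and 10358 to 12040 in WT. Neutrophil markers (7 of 7 below 0) summed to 10.2 to 48.7 CPM in KO and 103 to 187 in WT, leukocyte markers (5 of 5 below 0) to 211 to 272 and 240 to 392, glial markers (2 of 4 below 0) to 13.7 to 23.4 and 21.4 to 26.5, and adipocyte markers (4 of 4 tested below 0) to 51.7 to 76.3 and 58.7 to 251. No listed marker was at 0 in all libraries. The part of these cell types in the laminin, nidogen and integrin levels was not tested.

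**Figure D5:**
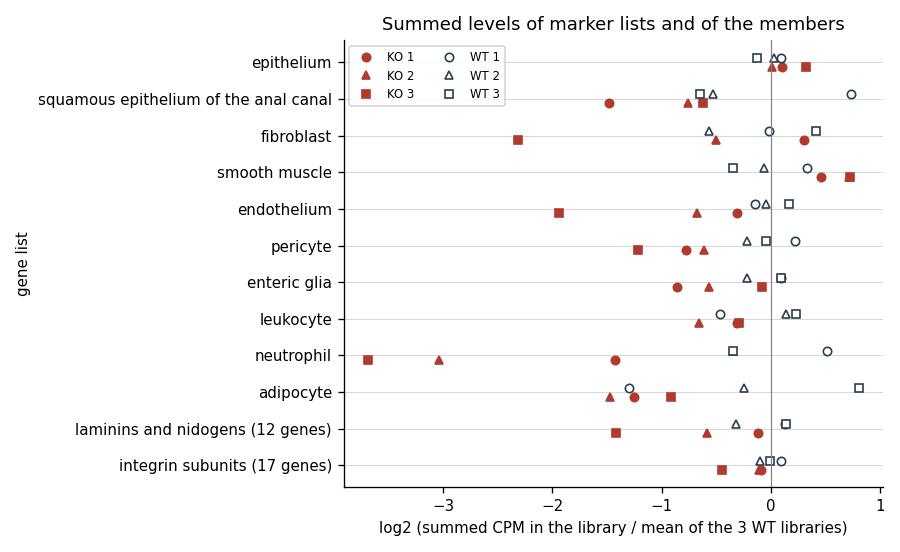
Summed CPM of each marker list and of the 12 laminin and nidogen genes and the 17 integrin genes, as log2 of the ratio to the mean of the 3 WT libraries (red filled KO, open WT). In KO 3 the laminin and nidogen sum is 0.375 of the WT mean and the fibroblast and endothelial sums are 0.201 and 0.261 of it, while the epithelial sum is 1.25.

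Other genes of the same pathway were read from lists of basement membrane, hemidesmosome, adhesion complex and ligand genes, and edgeR called none of them. Among 19 further basement membrane genes 13 lay below 0 (median -0.30, and 0.04 without KO 3), beside 45.8% of all genes. An unadjusted p below 0.05 in edgeR was found for 2, both lower in KO, beside 7.85% of all genes. These were Ntn4, a netrin that loosens laminin networks (-0.63 ± 0.20, edgeR adjusted p = 0.251), and Col18a1, the collagen that carries endostatin (-1.37 ± 0.57, edgeR adjusted p = 0.362). The laminin receptor Bcam came next with -0.49 ± 0.23. Among hemidesmosome and tetraspanin genes the linkers Plec (-0.36 ± 0.19) and Dst (-0.36 ± 0.26) lay below 0, neither with an unadjusted p below 0.05. The tetraspanins Cd151 (-0.03 ± 0.17), Cd9 (-0.04 ± 0.17) and Cd81 (0.13 ± 0.15) were close to 0.

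Inside the cell, 25 genes of the integrin adhesion complex had a median of -0.09, which turned to 0.02 without KO 3. Of these, 19 were below 0, beside 45.8% of all genes, and 2 had an unadjusted p below 0.05 in edgeR, lower in KO (7.85% of all genes). The 2 were the scaffold Nedd9 (-0.47 ± 0.13, edgeR adjusted p = 0.213) and the blood cell kindlin Fermt3 (-0.55 ± 0.19, edgeR adjusted p = 0.292). Tln2, a talin, followed with -0.52 ± 0.25. The summed level of the 25 genes was 3060 to 4153 CPM in KO and 3810 to 3888 CPM in WT, so the groups overlapped.

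Ligands of the RGD-binding integrins and of Itga9 formed a further list. Of 15 such genes (Vwf among them, which is also an endothelial marker) 13 were below 0, beside 45.8% of all genes. The median was -0.52, and -0.26 without KO 3. Of the 15, 6 had an unadjusted p below 0.05 in edgeR, all lower in KO (7.85% of all genes). DESeq2 called 3 of them lower (2.96% of all genes), Thbs1, Tnc and Spp1, the genes of thrombospondin 1, tenascin C and osteopontin. Spp1 averaged 2.80 ± 1.86 CPM in KO and 11.3 ± 5.92 in WT (SD, n = 3; -2.01 ± 0.58, edgeR adjusted p = 0.219, DESeq2 adjusted p = 0.0078), and Thbs1 and Tnc stood at -1.84 ± 0.29 and -1.21 ± 0.33. Among 9 leukocyte and platelet integrins, which lie outside the set, 8 were below 0, beside 45.8% of all genes. The median of the 9 was -0.73, and -0.78 without KO 3. An unadjusted p below 0.05 in edgeR was found for 4 of them, all lower in KO (7.85% of all genes). Itgae, of intraepithelial lymphocytes, stood at -1.17 ± 0.33, Itgam, of myeloid cells, at -1.25 ± 0.41 and the beta subunit Itgb2 at -0.73 ± 0.29. DESeq2 called Itgae and Itgam lower (2.96% of all genes).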

How the data were processed

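Total RNA of 6 DSS-treated colon samples was extracted with Trizol and prepared with the SMARTER mRNA-Seq Library Prep Kit, as the labels' protocols state. The authors deposited 1 table with read counts per gene and library (whole numbers, used as deposited) and TPM values that sum to the same total for every library. The deposited log2 fold change, p-value and false discovery rate are the authors' own, with no tool named. Builds listed in the submitters' processing notes are GRCm38, mm10 and mm39, with no role given. The aligner, the counting program and the use of strand are not stated in the labels or the file.

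Counts were tested with edgeR 4.0.16 (quasi-likelihood F-test, TMM factors, default expression filter by group; R 4.3.3), fitted on 14553 of 21899 genes without covariates and called at a Benjamini-Hochberg adjusted p below 0.05. All 29 genes passed the filter. The SE is the fold change over the root of F, which is approximate. The tests were tried on simulated data. Alternatives were DESeq2 1.42.0, limma-voom (3.58.1), limma on log2(TPM + 1) and log2(TPM + 0.1), other factors and filters, a replicate block and leaving out each library. Shares of laminin alpha chains used deposited TPM and an exact permutation test over libraries. The length implied by counts over TPM was divided by each library's median over genes and by the WT mean.

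Named are all 29 genes, with full statistics for those with an unadjusted p below 0.05 and the abundant members of each role, and the 3 genes of smallest p in each pathway list, except that a gene of these lists is not reported here. The genes and lists were chosen with earlier results of these data known. Positions are from GENCODE M21 (GRCm38), matched by identifier, and upstream sequences from RefSeq (GRCm38.p6), which listed 19 of the 29 genes. Exons of 11 of the 29 genes overlap those of another gene (Lama2, Lama3, Lamc3, Nid1, Nid2, Itga1, Itga7, Itga8, Itga10, Itgav and Itgb4). Without stated strand use their counts are uncertain.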

Additional observations from a re-analysis of the deposited data

How the results depend on the processing

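No alternative fit called a gene of the set higher, and DESeq2 alone called 1 lower (Itgb3); an adjusted p below 0.1 in edgeR added none. Genes of the set with an unadjusted p below 0.05 were all lower in KO. They numbered 4 to 7 over the fits that kept all libraries (6.41% to 8.92% of all genes). Over the fits that left 1 out they numbered 1 to 12 (5.77% to 10.1% of all genes). Over all genes edgeR called 23, DESeq2 548, limma-voom 29 and the replicate block 81. Deviations of same-numbered KO and WT libraries from their group means had correlations of -0.419, -0.150 and -0.429. With 3 libraries a group such values are tied to each other, so they cannot show whether the numbers mark a pairing or a batch. With the replicate block 6 genes of the set had an unadjusted p below 0.05 in edgeR, lower in KO (6.41% of all genes). None was called, and the median was -0.48. The set's median log2 fold change ran from -0.55 (limma on log2(TPM + 0.1)) to -0.44 with all libraries and from -0.56 to -0.20 with 1 left out. Directions held for 22 of the 29 genes in every alternative that tested them (Itga10 was not tested with at least 1 CPM in 3 libraries). Itgb1 turned to -0.018 with upper-quartile factors and to -0.0465 and -0.0468 in the TPM fits, and ran from -0.13 to 0.11 with a library left out. With a library left out the other 6 ran from -0.54 to 0.0436 (Lamc3), -0.23 to 0.12 (Itga6), -0.18 to 0.0808 (Itga2), -0.80 to 0.14 (Itga11), -0.44 to 0.14 (Itga8) and -0.37 to 0.0796 (Itga9). Differences in alpha chain share near 0 changed sign: Lama2 (0.373 percentage points) went to -0.290 as a share of CPM and -0.0525 without Lama1 in the sum, and from -1.23 to 1.94 with a library left out, and Lama5 (-0.0477) to 0.756 and from -1.70 to 1.35. The cause was not tested. Chosen after seeing the data, the count of genes with all KO below all WT was 4 by CPM, beside 10.2% of all genes. It was 4 with median-ratio factors and 5 by TPM, where Lamb2 joined. The share over all genes was not computed for these alternatives. At 3 libraries a group no permutation p can go below 0.1.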
